A study of Mus musculus with 6 samples.

Results

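A set of 10 genes of fatty acid synthesis and oxidation, of 37074 gene names on the array, was followed in hypothalamic RNA of diet-induced obese (DIO) mice, namely Fasn, Acaca, Acacb, Scd1, Scd2, Cpt1a, Cpt1c, Cpt2, Acadm and Ppargc1a. The members were chosen by name: every probe whose gene name in the scanner files equals one of these 10 symbols was taken, which gave 22 of the 56605 probes on the array. A probe was kept when all 3 arrays of 1 group or both measured it well above background, which held for 20 of the 22 member probes and for 34444 probes of the whole array. RNA of the hypothalamus was hybridized in 1 colour to 6 Agilent mouse expression arrays of 60-base probes, 3 labelled Vehicle and 3 labelled GSK-J4. All mice were male C57BL/6J given a diet with 60 kcal% fat from 6 weeks of age for 16 weeks, and they carried no engineered allele. The GSK-J4 group received 30 mg per kg of GSK-J4, an inhibitor of the Kdm6 demethylases that remove methyl groups from H3k27, by intraperitoneal injection at ZT 2 h, and the Vehicle group received the carrier only. The tissue was taken at ZT 6 h, where ZT counts hours from lights on, and is described as taken on day 4, although the paper describes longer treatment and does not state the day of the arrays. Each array holds a different mouse according to the description. The compound reached the whole body, so the hypothalamus is not its only site of action. The 3 Vehicle arrays lie on slide 1 and the 3 GSK-J4 arrays on slide 2, each slide scanned on its own, so that in every difference given here slide and compound cannot be told apart. The hypothalamus was cut out whole, and in such bulk RNA fewer cells of a type and less RNA per cell cannot be told apart.

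Fatty acid synthesis begins when acetyl-CoA carboxylase, encoded by Acaca and Acacb, converts acetyl-CoA to malonyl-CoA, which fatty acid synthase (Fasn) extends to palmitate. Stearoyl-CoA desaturases (Scd1, Scd2) then place a double bond in the product. Malonyl-CoA also inhibits carnitine palmitoyltransferase 1 (Cpt1a), the entry step of mitochondrial oxidation, so that synthesis and oxidation do not run at full rate together. In the hypothalamus the level of malonyl-CoA is known as a signal of energy state that bears on food intake.

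A few probe sequences, read from the scanner files, are shown here because the results turn on them. They include the probes of Fasn and Scd2, which lie among the brightest on the array. Also shown are the kept probes of Acaca and of Acacb with the largest difference in size within the gene. The pair of Ppargc1a probes, which did not move alike, completes the list. The files give coordinates on mm9. An annotation of that build was not used here, so for Fasn, Scd2 and the first Ppargc1a probe only the first 30 of the 60 bases are printed. The letters are in lower case except a stop codon at the very end of a probe, which is in capitals.
Fasn A_51_P321126, chr11:120668460-120668519, minus strand, first 30 bases: gcttgggttttgacttttctgcagctgtca
Scd2 A_51_P129464, chr19:44381024-44381083, plus strand, first 30 bases: acatttggggatcctctgcagaggagtatt
Acaca A_55_P2121392, chr11:84009021-84009080, plus strand: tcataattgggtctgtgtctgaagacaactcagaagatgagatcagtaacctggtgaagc
Acacb A_66_P110803, chr5:114667674-114667733, plus strand: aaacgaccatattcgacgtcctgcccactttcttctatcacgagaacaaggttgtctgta
Ppargc1a A_51_P279038, chr5:51848928-51848987, minus strand, first 30 bases: ccccttcaaatggcagcatttccatgaaga
Ppargc1a A_55_P2745394, chr5:51849419-51849478, minus strand: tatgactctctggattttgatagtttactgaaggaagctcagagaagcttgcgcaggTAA

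The probes of a gene test different stretches of its transcripts. The last of these sequences reads without a stop in 1 frame up to its final TAA, and the other Ppargc1a probe lies 431 bases further along the transcript. In all, 3 probes, 2 of Acaca and 1 of Acacb, span more than their 60 bases on mm9 and thus cross at least 1 intron. The Cpt2 probe A_51_P403388 has coordinates that span only 40 bases, fewer than its 60, and the reason was not examined. The Acaca probes A_52_P132591 and A_55_P2931361 share a run of 36 bases and are not independent of each other. The longest run shared by any other pair of the 22 probes was 10 bases.

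Across the 20 kept probes, 1 differed between the groups at a Benjamini-Hochberg adjusted p of at most 0.05 in limma, the probe of Fasn, which was lower in GSK-J4. Over all kept probes the same test called 16.8%, with 8.39% higher and 8.42% lower in GSK-J4. At an unadjusted p of at most 0.05 it was 4 of the 20 members, beside 36.5% of all kept probes. With a fold of at least 1.5 and an unadjusted limma p of at most 0.05 the members gave 0 calls, beside 12.6% of all kept probes (4.79% higher and 7.86% lower). At the same thresholds in the methods' t-test they also gave 0 calls, beside 8.53% of all kept probes. The groups did not overlap on 7 member probes, 3 with GSK-J4 above and 4 with GSK-J4 below, whereas 45.6% of all kept probes had groups that did not overlap. The log2 difference, GSK-J4 minus Vehicle, was above 0 on 11 of the 20 member probes and on 52.7% of all kept probes. The median log2 difference of the members, GSK-J4 minus Vehicle, was 0.01 against 0.02 over all kept probes. The median size of the difference without regard to sign was 0.12 in the members and 0.25 over all kept probes, with median standard errors (SE) of 0.12 and 0.13. The counts describe the members and were not tested as a set.

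**Figure D1:**
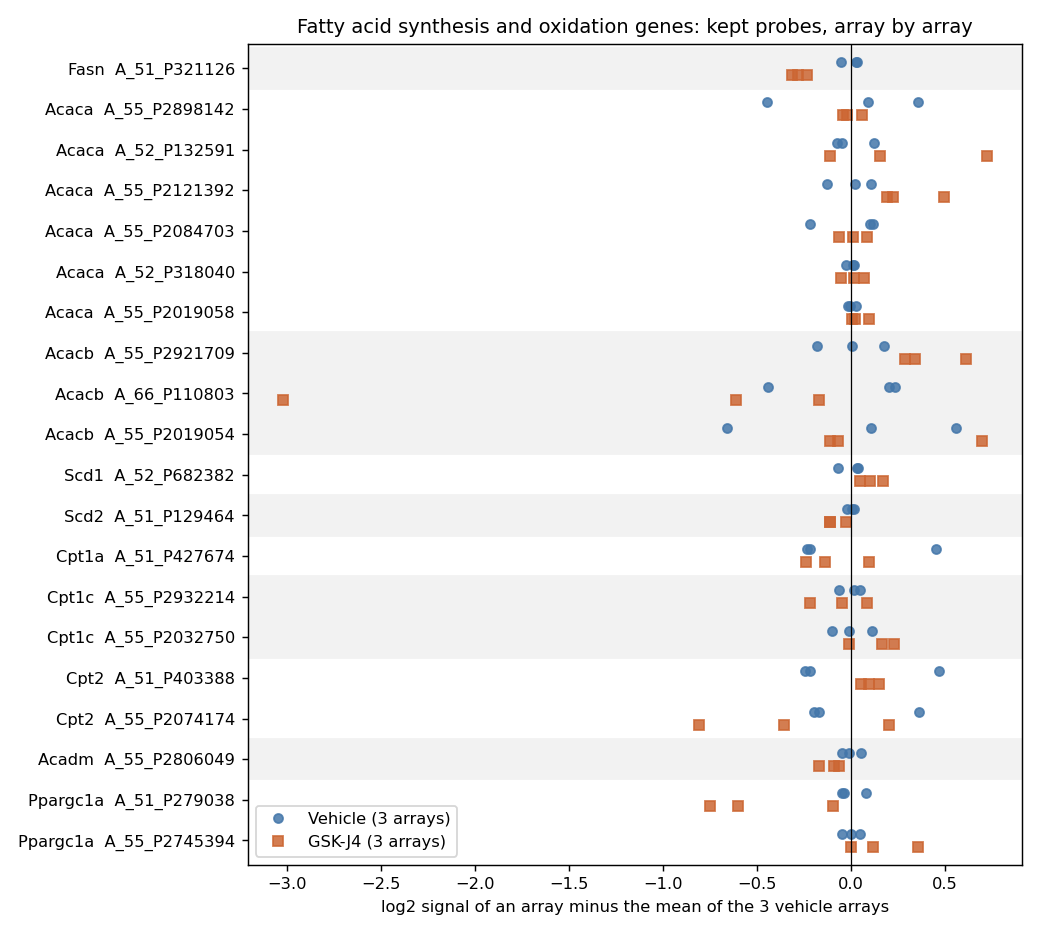
Log2 signal of each of the 6 arrays minus the mean of the 3 Vehicle arrays (x axis) for the 20 kept probes (y axis), with circles for Vehicle and squares for GSK-J4. The 3 squares of Fasn lie below its 3 circles on these quantile normalized values, a direction that turned when signals were scaled to the 75th percentile, and 1 GSK-J4 array stands far to the left on the Acacb probe A_66_P110803.

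Fasn, the synthase itself, is represented by 1 probe. Its log2 signal was 15.34, 15.33 and 15.26 on the Vehicle arrays and 15.00, 15.03 and 15.08 on the GSK-J4 arrays. All 3 GSK-J4 arrays were below all 3 Vehicle arrays, and the arrays of a group lay close together. The difference was -0.28 (SE 0.07, 95% interval -0.45 to -0.11), a signal 1.21-fold lower, with an adjusted p of 0.048 in limma, and it turned to +0.16 (adjusted p 0.16) when the scanner signals were scaled to the 75th percentile of each array in place of quantile normalization. An exact permutation test of 3 arrays against 3 gave a two-sided p of 0.1, the smallest that the design allows. The adjusted p was between 0.068 and 0.15 with any 1 of the 6 arrays left out, so the call did not survive the loss of any array, with differences from -0.30 to -0.26.

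The difference between the scalings went with brightness, and the GSK-J4 arrays were dimmer. The upper quartile of signal (75th percentile) ran from 407 to 461 on the GSK-J4 arrays and from 788 to 916 on the Vehicle arrays, and 57.7% to 58.7% of the probes against 62.8% to 63.6% were well above background. With 75th percentile scaling the median difference rose with brightness, from -0.18 for probes with a mean log2 signal below 6 to 0.50 for the 618 probes above 15. With the deposited values the class medians lay between -0.06 and 0.05. Relative to the median of the probes above 15, Fasn was at -0.31 with the deposited values and at -0.35 with 75th percentile scaling. Thus the sign of the Fasn difference depends on the scaling. Its place relative to equally bright probes was similar in both. Both scalings start from the same scanner signals and largely keep the order of probes within an array. The similarity follows from that and is no separate support for a lower Fasn.

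**Figure D2:**
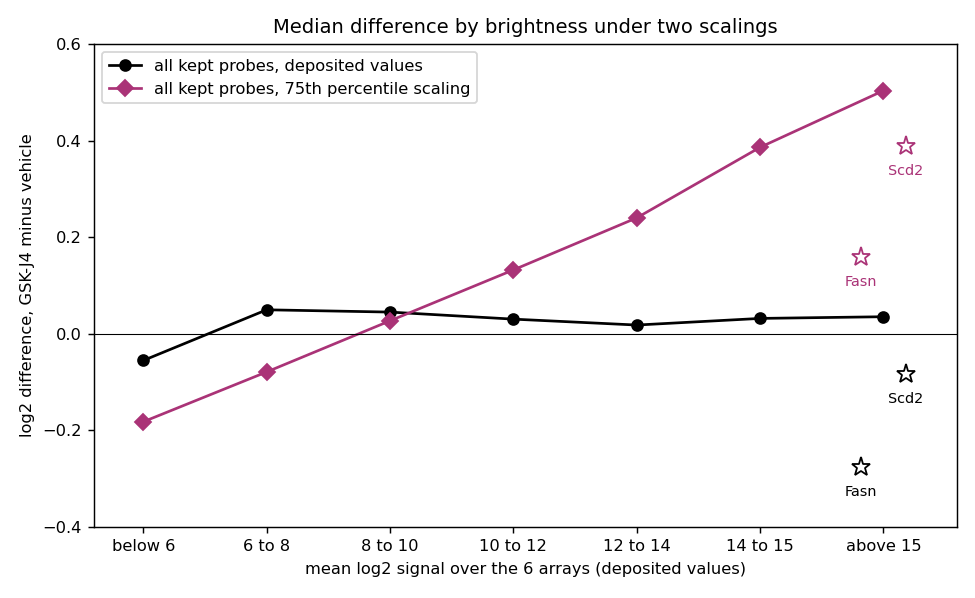
Median log2 difference, GSK-J4 minus Vehicle (y axis), of all kept probes in classes of mean log2 signal (x axis), with circles for the deposited values and diamonds for 75th percentile scaling, and with stars for Fasn and Scd2 in the colour of the scaling. Both genes lie below the class median under either scaling, but below 0 only with the deposited values.

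The patterns most like that of Fasn over the 6 arrays, each probe centred on its own mean, belonged to Sptlc1, Uba3 and Lgi1, with root mean square distances of 0.02 on the log2 scale among 20219 genes searched. Sptlc1 encodes a subunit of serine palmitoyltransferase, which joins palmitoyl-CoA to serine at the start of sphingolipid synthesis. Its difference was -0.29, beside -0.28 for Uba3 and -0.30 for Lgi1. These genes were picked for closeness to Fasn on the same 6 arrays, so like differences follow from the choice. Shared regulation was not tested.

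Acaca encodes acetyl-CoA carboxylase 1, the cytosolic enzyme that supplies malonyl-CoA for synthesis, and has 7 probes, of which 6 were kept and 0 were called. On the brightest, A_55_P2019058, the log2 signal was 12.32, 12.31 and 12.35 in Vehicle and 12.42, 12.35 and 12.33 in GSK-J4, a difference of 0.04 (SE 0.07, 95% interval -0.12 to 0.21, adjusted p 0.68). The probe A_52_P318040, which lies 674 bases upstream of it, gave 8.87, 8.92 and 8.91 against 8.97, 8.91 and 8.85, a difference of 0.01 (95% interval -0.16 to 0.18). On both probes the groups overlapped, and on both the difference was smaller than its SE.

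The Acaca probe printed above, A_55_P2121392, gave 5.96, 5.73 and 5.88 in Vehicle and 6.35, 6.05 and 6.08 in GSK-J4. Here the groups did not overlap, and the difference of 0.30 (SE 0.12) had an adjusted p of 0.12. It exceeded the difference of A_55_P2019058 by 0.26, of A_52_P318040 by 0.29 and of A_55_P2084703 by 0.29. In each of these 3 contrasts between probes of the gene the groups did not overlap, with an exact permutation p of 0.1 that rose to 0.53 after adjustment over the 21 pairs of probes compared. The remaining kept probes had wider spreads: A_55_P2898142 ranged from 5.90 to 6.71 within Vehicle, and A_52_P132591 reached 5.40 on GSK-J4 1 beside 4.57 to 4.83 on the other arrays. Their differences were -0.00 and 0.26, and that of A_55_P2084703 was 0.01. Relative to A_55_P2121392, A_55_P2898142 was at -0.31 and A_52_P132591 at -0.05. The groups overlapped in both contrasts, with an exact permutation p of 0.4 and 0.9. The last probe, A_55_P2931361, was not above background on any array.

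Acacb encodes acetyl-CoA carboxylase 2, the form at the mitochondrial surface whose malonyl-CoA acts on carnitine palmitoyltransferase 1, and its 3 probes differed in sign. The probe that crosses an intron, A_55_P2921709, was near the low end of the scale, with 4.73, 4.37 and 4.56 in Vehicle and 4.84, 5.16 and 4.89 in GSK-J4. The groups did not overlap, and the difference of 0.41 (SE 0.13, 95% interval 0.08 to 0.74) had an adjusted p of 0.086. It passed the threshold only in the fit with array weights, where it was 0.53 with an adjusted p of 0.047. With 75th percentile scaling it was 0.28 (adjusted p 0.22 in limma). With normexp background correction it shrank to 0.09 (adjusted p 0.40 in limma).

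The Acacb probe A_66_P110803 gave 7.21, 7.86 and 7.89 in Vehicle and 4.63, 7.04 and 7.48 in GSK-J4. Its low value came from GSK-J4 1, where the processed signal of its spot was 17.7 beside 95.9 and 116 on the other 2 GSK-J4 arrays, without an outlier flag. The groups overlapped, since 7.48 on GSK-J4 3 exceeded 7.21 on Vehicle 1, and the difference of -1.27 had an SE of 0.76 (adjusted p 0.28). Without GSK-J4 1 it was -0.39 (adjusted p 0.36). The third probe, A_55_P2019054, ranged from 7.55 to 8.77 in Vehicle and from 8.10 to 8.91 in GSK-J4. The 3 Acacb probes therefore gave no difference past the threshold, and the interval of A_66_P110803, from -3.14 to 0.60, leaves changes of several-fold undetectable with these arrays.

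The desaturases came next. Scd1, the form known best from liver and fat, gave 11.08, 11.08 and 10.97 in Vehicle and 11.21, 11.09 and 11.14 in GSK-J4 on the probe A_52_P682382. The GSK-J4 arrays were above the Vehicle arrays by a small margin, with a difference of 0.11 (SE 0.07, 95% interval -0.08 to 0.29, adjusted p 0.35). A second Scd1 probe, A_55_P2743499, was not above background on any array.

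Scd2, the main form of brain and of myelin-forming cells, gave 15.62, 15.62 and 15.59 in Vehicle and 15.50, 15.50 and 15.58 in GSK-J4. The GSK-J4 arrays lay below the Vehicle arrays and the difference was -0.08 (SE 0.07, adjusted p 0.41), but with 75th percentile scaling it was +0.39 with an adjusted p of 0.020. Relative to the median of equally bright probes it was -0.12 in both cases, which, as with Fasn, is no separate support for a lower level. The summed level of 10 oligodendrocyte markers, on the log2 scale, was 17.18 to 17.42 in Vehicle and 17.24 to 17.28 in GSK-J4, and 0 of the 10 were called in limma. Their part in the values of Scd2 was not tested.

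**Figure D3:**
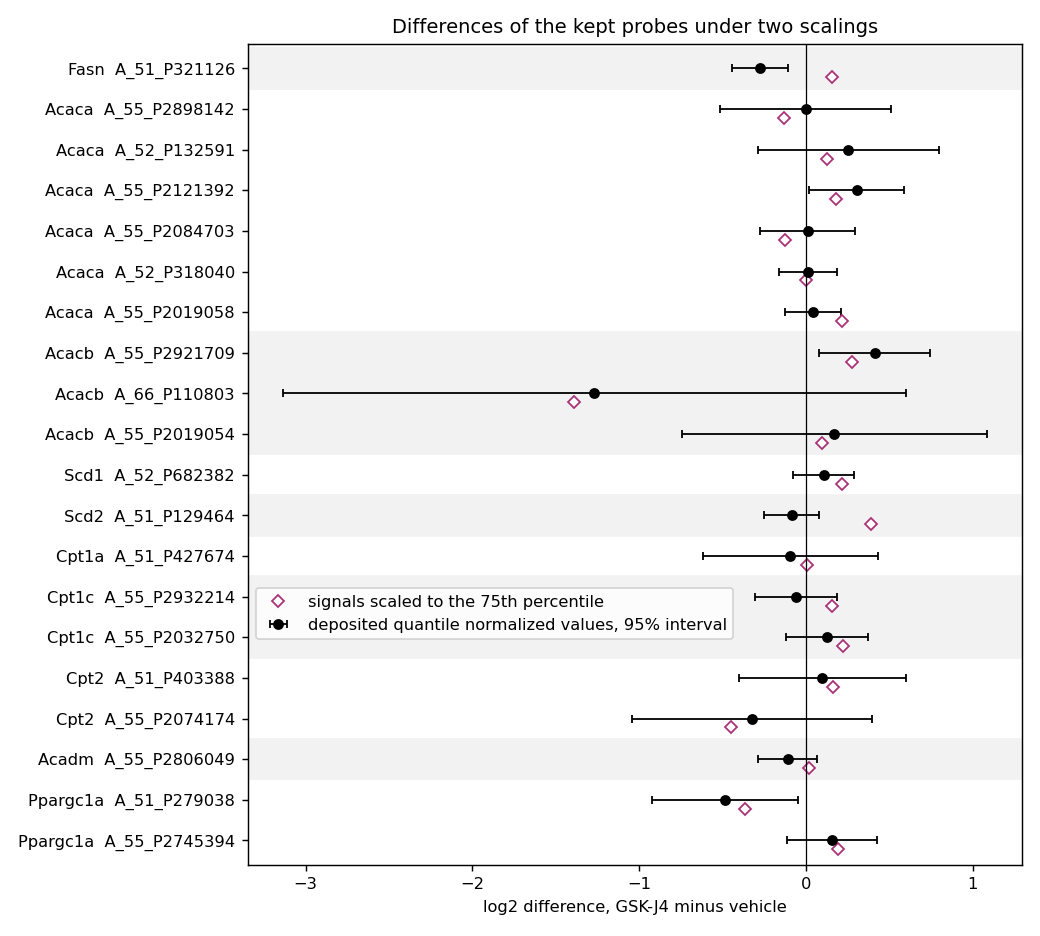
Log2 difference, GSK-J4 minus Vehicle (x axis), of the 20 kept probes (y axis), with filled points and 95% intervals for the deposited values and open diamonds for signals scaled to the 75th percentile. The interval of Fasn lies below 0 while its diamond lies above 0 at 0.16, the diamond of Scd2 lies at 0.39, and of the other intervals only those of Acaca A_55_P2121392, Acacb A_55_P2921709 and Ppargc1a A_51_P279038 leave out 0.

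The carnitine shuttle carries long-chain fatty acids into mitochondria. Cpt1a encodes the malonyl-CoA sensitive enzyme of the outer membrane, and its probe gave 11.24, 10.55 and 10.57 in Vehicle and 10.55, 10.65 and 10.88 in GSK-J4. Cpt2 encodes the partner enzyme of the inner membrane, and its brighter probe, A_51_P403388, gave 10.50, 9.82 and 9.79 in Vehicle and 10.19, 10.09 and 10.14 in GSK-J4. On both probes Vehicle 1 was the highest of the 6 arrays. The differences were -0.09 (SE 0.21, adjusted p 0.78) for Cpt1a and 0.10 (SE 0.20, adjusted p 0.75) for Cpt2.

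Vehicle 1 also stood apart in markers of the choroid plexus, the tissue of the ventricles that forms cerebrospinal fluid. The summed level of 7 such markers was 16.77 on Vehicle 1, 11.64 and 11.72 on the other Vehicle arrays, and 13.60, 11.52 and 12.51 on the GSK-J4 arrays. All 7 markers were highest on Vehicle 1. Without Vehicle 1 the difference of Cpt1a was 0.13 (adjusted p 0.51) and that of Cpt2 was 0.33 (adjusted p 0.083), the sign of Cpt1a having turned. The part of the choroid plexus in these values was not tested.

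**Figure D4:**
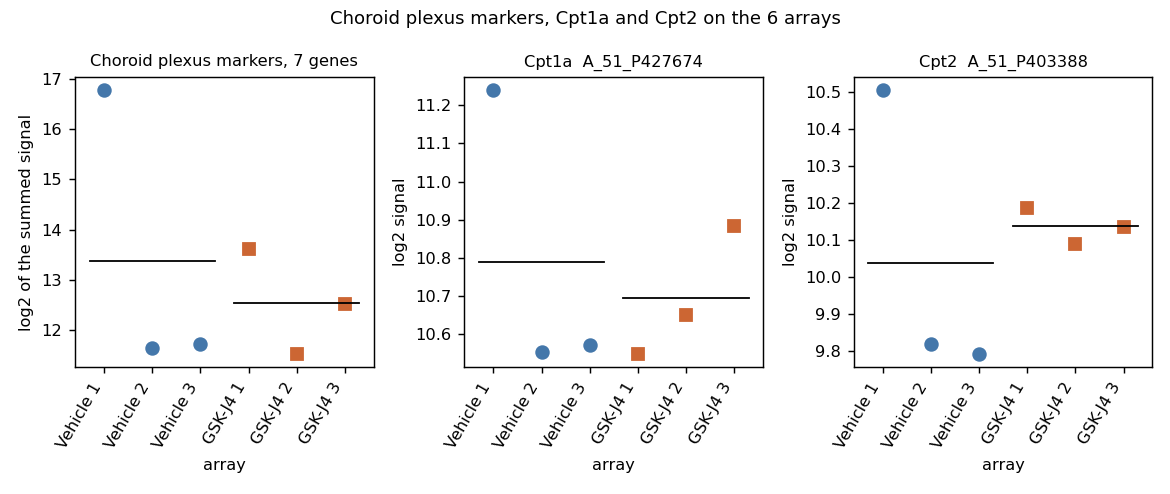
Log2 of the summed signal of 7 choroid plexus markers and log2 signals of the Cpt1a and the brighter Cpt2 probe (y axes, each with its own range) on the 6 arrays (x axes), with horizontal lines at the group means. Vehicle 1 is the highest array in all 3 panels, at 16.77, 11.24 and 10.50.

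The dimmer Cpt2 probe, A_55_P2074174, was well above background on 3 Vehicle arrays and 1 GSK-J4 array. It gave 4.36 to 4.92 in Vehicle against 3.75 to 4.76 in GSK-J4 (difference -0.32, adjusted p 0.46 in limma). The difference was -0.58 without GSK-J4 1, -0.08 without GSK-J4 3 and -0.14 without Vehicle 1. Cpt1c, the neuronal relative of Cpt1a that sits in the endoplasmic reticulum, had 2 kept probes. A_55_P2932214 gave 12.93, 13.01 and 13.05 in Vehicle and 12.78, 12.95 and 13.09 in GSK-J4, and A_55_P2032750 gave 10.76, 10.97 and 10.85 against 10.85, 11.09 and 11.02. The groups overlapped on both, with differences of -0.06 (95% interval -0.30 to 0.19) and 0.13 (95% interval -0.12 to 0.37). The sign of A_55_P2932214 turned to 0.15 when scaled to the 75th percentile, and that of A_55_P2032750 to -0.13 after removal of the GC trend.

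Acadm encodes medium-chain acyl-CoA dehydrogenase, which performs the first step of each round of oxidation on medium-chain substrates. It gave 11.71, 11.61 and 11.65 in Vehicle and 11.48, 11.59 and 11.57 in GSK-J4. The GSK-J4 arrays lay below the Vehicle arrays, although Vehicle 2 and GSK-J4 2 lay close together, and the difference was -0.11 (SE 0.07, 95% interval -0.29 to 0.07, adjusted p 0.32), or +0.02 when scaled to the 75th percentile and +0.06 after removal of the GC trend.

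Ppargc1a encodes PGC-1α, a coactivator of genes of mitochondrial oxidation, and its 2 probes did not move alike. A_51_P279038 gave 11.61, 11.62 and 11.74 in Vehicle and 11.56, 11.05 and 10.90 in GSK-J4, so that 2 GSK-J4 arrays were well below Vehicle and GSK-J4 1 was close to it. The difference was -0.48 (SE 0.18, 95% interval -0.92 to -0.04) with an adjusted p of 0.11, and without GSK-J4 1 it was -0.68 with an adjusted p of 0.037. Without any 1 of the other arrays it ran from -0.51 to -0.35, with adjusted p from 0.20 to 0.25. A_55_P2745394, which ends on the stop codon, gave 9.70, 9.75 and 9.66 in Vehicle and 10.06, 9.70 and 9.82 in GSK-J4, a difference of 0.16 (SE 0.11, adjusted p 0.35) that was 0.06 without GSK-J4 1. The probes differed from each other in their GSK-J4 effect by -0.64, with no overlap of the groups and an exact permutation p of 0.1, which was 0.53 after adjustment over the 21 pairs.

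The wider pathway was described with 123 further gene symbols, 119 of them on the array. They cover synthesis, activation, mitochondrial and peroxisomal oxidation, their regulators and ketone body metabolism. Each gene was followed through its brightest kept probe. Of 114 genes with a kept probe, 13 were called (adjusted p up to 0.05, over the 22117 genes kept), 4 higher and 9 lower in GSK-J4. That is 11.4% of these genes, while 16.8% of all genes kept were called, 8.99% higher and 7.79% lower. The median difference of the 114 genes was 0.03, against 0.04 over all genes kept. All 13 were well above background on the 6 arrays. Groups did not overlap in 42 of the 114 genes, the 13 among them, beside 45.5% of all genes kept. Without any 1 of the 3 Vehicle arrays 0 of the 114 were called in limma (22 to 29 at an unadjusted p of at most 0.05), and without any 1 of the GSK-J4 arrays 6 to 11 were. With 75th percentile scaling 33 were called, 26 higher and 7 lower, and the 13 genes kept their directions. That scaling also raised the calls over the whole array, to 8670 of the 34444 kept probes, from 5788 with the deposited values. Of those 8670 probes 58.1% were higher.

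In the synthesis list 1 of 32 genes rose and 2 fell. Mlxipl, which encodes the glucose-responsive transcription factor ChREBP of lipogenic genes, gave 11.38, 11.18 and 11.20 in Vehicle and 9.80, 10.25 and 10.37 in GSK-J4. It fell by 1.12 (SE 0.16, adjusted p 0.018), and its other kept probes differed by -1.02 and -0.16. Oxsm, the condensing enzyme of mitochondrial fatty acid synthesis, gave 11.23, 11.44 and 11.22 against 10.14, 10.32 and 9.74. It fell by 1.23 (SE 0.17, adjusted p 0.016) on this probe, whereas a dimmer one differed by 0.36 (adjusted p 0.28). Fads6, a member of the fatty acid desaturase family, rose by 0.74 (adjusted p 0.029) with 0.45 on its other kept probe.

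In the mitochondrial list 0 of 25 genes rose and 4 fell. Etfa, a subunit of the flavoprotein that takes electrons from the acyl-CoA dehydrogenases, had 12.26, 12.07 and 12.11 in Vehicle and 11.77, 11.80 and 11.74 in GSK-J4. Its difference was -0.37 (adjusted p 0.032), its other kept probes gave -0.38 and -0.32, and with 75th percentile scaling it was -0.22 (adjusted p 0.060). Acad9, an acyl-CoA dehydrogenase that also serves in the assembly of respiratory complex I, fell by 0.68 on its brightest probe but differed by 0.00, -0.09 and 0.17 on the other 3. Acadsb, the dehydrogenase of short branched chains, fell by 0.41, with another probe at 0.35 in the opposite direction and the remaining one not well above background on any GSK-J4 array, and Acad12, a further member of the family, fell by 0.87 with -0.28 on its other kept probe.

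Among 17 regulators of oxidation 2 rose and 1 fell. Ppara, the fatty acid receptor that drives oxidation genes in liver, gave 8.45, 8.30 and 8.30 in Vehicle and 8.97, 8.81 and 8.84 in GSK-J4. It rose by 0.52 (SE 0.08, adjusted p 0.020), with 0.29 (adjusted p 0.076) on its other probe. Ppard, its relative of wide expression, gave 10.16, 10.16 and 10.20 against 10.77, 10.42 and 10.76 and rose by 0.48 (adjusted p 0.043). Gabpa, an ETS factor of nuclear genes for mitochondria, fell by 0.95 on a probe with 26.7% GC, while its other 2 probes differed by 0.04 and -0.03.

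In the peroxisomal list 1 of 15 genes rose and 1 fell. Acot8, a peroxisomal thioesterase, rose by 0.51 (adjusted p 0.014), and Decr2, the peroxisomal dienoyl-CoA reductase, fell by 0.46 (adjusted p 0.015), which was -0.07 (adjusted p 0.46) with 75th percentile scaling. In the activation list 1 of 20 genes fell, Acsl4, an acyl-CoA synthetase that favours arachidonate, by 0.34 with 0.04 and 0.06 on its other probes, and it was at -0.15 (adjusted p 0.14) with 75th percentile scaling. In the ketone body list 0 of 5 were called in limma, with differences from -0.04 to 0.40. The base composition of the probes moved with the differences on these arrays: the median difference was -0.16 for probes of up to 35% GC and 0.24 for those above 50%. The member probes had 35% to 53.3% GC, with a median of 43.3% as over all kept probes. With the GC trend removed within arrays Fasn was at -0.35 (adjusted p 0.037) and 8 of the 114 pathway genes were called. Acad12, Acot8, Acsl4, Etfa, Fads6 and Gabpa were then no longer past the threshold, with adjusted p from 0.061 to 0.12. Their differences were then -0.70 for Acad12, 0.25 for Acot8, -0.17 for Acsl4, -0.27 for Etfa, 0.52 for Fads6 and -0.51 for Gabpa. Base composition was not tested further.

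**Figure D5:**
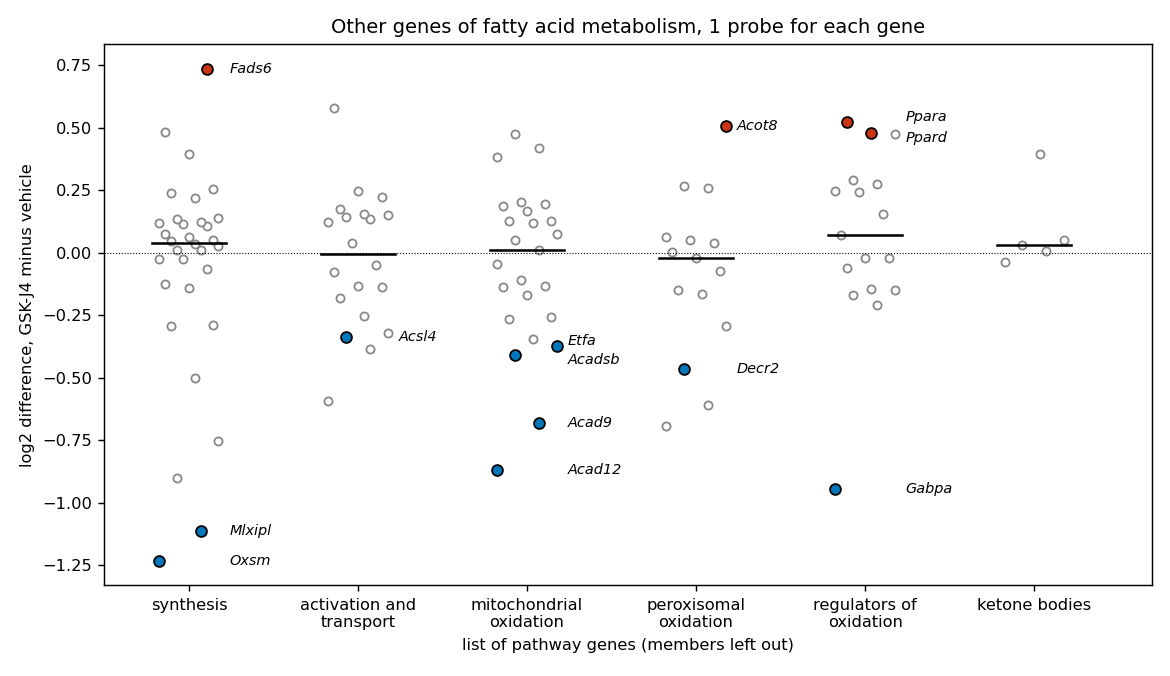
Log2 difference, GSK-J4 minus Vehicle (y axis), of 114 further genes of fatty acid metabolism in 6 lists (x axis), 1 probe for each gene, with named filled points for the 13 called genes, red above 0 and blue below, and a line at each list's median. The medians lie between -0.02 and 0.07, and the called genes kept their directions with 75th percentile scaling.

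The label of the tissue was compared with marker genes. The markers of hypothalamic neurons bore it out only in part, since many were dim or not kept. All 8 neuronal markers were kept, and of 16 markers of hypothalamic neurons 11 were kept, Pmch, Avp, Trh, Sim1 and Otp being those not kept. Several kept ones were dim, with Vehicle means of 4.24 (Kiss1), 4.74 (Agrp), 4.76 (Hcrt), 4.86 (Ghrh) and 5.70 (Oxt). The rest ran from 7.61 (Gal) to 15.24 (Sst). Kiss1 was well above background on 2 Vehicle arrays and Agrp on 2 GSK-J4 arrays. Of 6 pituitary markers 1 was kept, and of 8 adipocyte and hepatocyte markers 2 were kept, with Adipoq, Plin1, Cidec, Fabp4, Alb and Apoa1 not kept. The summed level of the 8 astrocyte markers was 17.00 to 17.09 in Vehicle and 17.11 to 17.17 in GSK-J4, without overlap, though 0 of the 8 were called in limma. The sum is of signals off the log scale and is weighted towards Aldoc (16.27 in Vehicle), whose groups overlapped. Differences were above 0 in 5 of the 8. Groups did not overlap in 4 of the 8, among them Gja1 with -0.27. The adipocyte and hepatocyte markers that were kept, Lep and Ttpa, had a summed level of 7.53 to 7.73 in Vehicle and 7.92 to 7.99 in GSK-J4, and Lep was called higher (0.31, adjusted p 0.043). C1qa of microglia (0.41) and Rax of tanycytes (1.09) were called higher as well, and Map2 of neurons (-0.33) was called lower. Their lists were split. Differences were above 0 in 4 of 7 microglia, 3 of 6 tanycyte and ependyma, and 5 of 8 neuronal markers. Rax was near the low end of the scale, well above background on 2 Vehicle and 3 GSK-J4 arrays. All 11 hypothalamic neuron markers kept had differences above 0, beside 11990 of all 22117 genes kept. The median difference of the 11 was 0.42, against 0.04 over all genes kept. Groups did not overlap in 7 of the 11, beside 45.5% of all genes kept. Npy and Pomc, 2 of the 11 (18.2%), were called higher, and the share called was near the 16.8% of all genes. The part of cell composition in the members' values was not tested.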

How the data were processed

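The members and the lists were chosen with earlier results of these data known. Per the file headers the arrays were read with Agilent Feature Extraction 10.7.1.1, and the authors deposited an intensity for each spot, corrected for background, with its flags. They also deposited log2 values for each probe, quantile normalized in GeneSpring by their methods. The sorted values of the 6 columns differed by at most 0.00424, each column correlated best with its own array, and 0 columns were unassigned. Main values are these log2 signals. Probes were kept when all 3 arrays of either group measured them well above background, and a gene was represented by its brightest kept probe. The groups were then compared with limma 3.58.1 (lmFit, eBayes, two-sided) in R 4.3.3 with the data.table package, version 1.17.8,, and p-values were adjusted by Benjamini-Hochberg over all kept probes, or genes for pathway genes. The fits were tested on simulated data. Every member is named, as is each pathway gene past an adjusted p of 0.05 with groups that do not overlap. Replicate numbers did not pair the arrays. The p-values measure only the spread between arrays, and the number of arrays limits the precision. Brightness served to choose 1 probe for each gene and to form classes of probes, and is not a comparison of transcript levels between genes. Alternatives were scanner signals, 75th percentile scaling, normexp with an offset of 50, other filters, flags and variance models, the methods' t-test, array weights, a replicate block, removal of a GC trend (lowess, span 30%), other probe rules, and the loss of each array in turn. Animal and ChIP-Seq experiments were not analysed here.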

Additional observations from a re-analysis of the deposited data

How the results depend on the processing

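The count of called members was 1 in the deposited values and stayed at 1 with scanner signals, normexp, a stricter filter, trended variance, the t-test with equal variances and GC removal, and also with 75th percentile scaling, where the called probe was Scd2 and not Fasn. It was 0 without a filter, with the positive and significant flag, with the methods' t-test without equal variances after adjustment or at their thresholds, with the fold rule and with a replicate block, 2 with array weights (Fasn and the Acacb probe A_55_P2921709), and 0 to 1 with an array left out, the 1 being Ppargc1a without GSK-J4 1. Over all kept probes 5788 were called, beside 8670 with 75th percentile scaling (5036 higher and 3634 lower), 3765 without a filter, 93 and 3315 by the t-tests without and with equal variances, 2938 at the methods' thresholds, 3605 with GC removal and 5 to 4166 with an array left out, of which 10, 13 and 5 without Vehicle 1, 2 and 3. The 13 pathway genes became 33 with 75th percentile scaling, 1 by the t-test without equal variances, 8 with GC removal, 8 at the methods' thresholds, 24 with any kept probe of a gene and 0 to 11 with an array left out. A replicate block gave 0 calls for members, pathway genes and all kept probes (2, 30 and 11069 at an unadjusted p of at most 0.05), and the correlations of arrays with the same number were 0.01, 0.03 and 0.08. The signs of Fasn (0.16) and Scd2 (0.39) were reversed with 75th percentile scaling, and among members not called in either, so were those of Acadm (0.02), Cpt1a (0.01), Cpt1c A_55_P2932214 (0.15), Acaca A_55_P2084703 (-0.13) and Acaca A_52_P318040 (-0.00). The share of higher calls was 49.9%, against 58.1% with 75th percentile scaling and 41.2% with GC removal. Without GSK-J4 1, 2 and 3 the calls over all kept probes were 2402, 4166 and 4018. Fewer arrays leave fewer degrees of freedom, equally so for a Vehicle and a GSK-J4 array. The causes were not tested. The kept member probes well above background on fewer than 6 arrays were those of Acaca (A_52_P132591) and Cpt2 (A_55_P2074174).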
